A study of Homo sapiens with 4 samples.

Results

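The IgLON genes LSAMP, NTM, OPCML, NEGR1 and IGLON5 were followed in Micro-C contact maps of the human neuroblastoma line SH-SY5Y. Micro-C cuts chromatin with micrococcal nuclease, ligates fragments that lie close together and counts the ligated pairs. Contacts are given here as pairs of 50 kb bins of hg38, and a pair was taken as belonging to a gene where either of its bins overlapped the gene body in RefSeq. This rule, which uses position alone, gave 100 of the 89239 listed pairs. NTM had 38 of them, OPCML 35, LSAMP 13, NEGR1 10 and IGLON5 4, and no pair belonged to more than 1 of the genes. Of the 100 pairs, 67 were contacts within a single bin, 28 joined adjoining bins and 5 joined bins 100 kb or more apart.

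The 2 control libraries came from SH-SY5Y cells carrying the shRNA construct named shNC, and the 2 knockdown libraries from cells carrying shTDP-43. TDP-43, the product of TARDBP, binds RNA and DNA. Both shRNAs were delivered by lentivirus from a U6 promoter. The stated selection of the stable knockdown cells was puromycin at 2 µg/mL for 2 weeks, followed by 1 µg/mL. All 4 library titles call the libraries merged. Nothing in the labels says that the libraries of a group came from separate cultures or infections. The p-values therefore set the difference between groups against the spread between these libraries. That spread may be technical, and each fit shares it in part over all its pairs or genes. A contact map holds no transcript, so the extent of the knockdown and the markers of the cell line could not be read from it. The listed contacts summed to 158400914 and 163147992 for the controls and to 115168160 and 142424414 for the knockdowns. The deposited list holds the more abundant pairs only, so these sums are not the full depth.

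IgLON proteins are small adhesion proteins with a short stack of immunoglobulin domains, held to the outer membrane by a glycosylphosphatidylinositol (GPI) anchor. They bind themselves and each other, within a membrane and between neurons, and are known for roles in neurite outgrowth and synapse formation. LSAMP was first described on limbic neurons, NTM (neurotrimin) and OPCML (opioid binding protein/cell adhesion molecule like) are expressed widely in the developing nervous system, NEGR1 (neuronal growth regulator) is best known from obesity and depression genetics, and IGLON5 from an autoimmune sleep disorder with antibodies against it. Apart from IGLON5, the genes are very long, with long introns, and several have alternative first exons far apart. LSAMP (gene ID 4045) runs over 643 kb on the minus strand of chr3:115802374-116445487. NTM (gene ID 50863), 966 kb on the plus strand of chr11:131370615-132336822, and OPCML (gene ID 4978), 1118 kb on the minus strand of chr11:132414981-133532501, lie tail to tail with 78.2 kb between them. NEGR1 (gene ID 257194) covers 887 kb of chr1:71395943-72282539. IGLON5 (gene ID 402665) covers 19.2 kb on the plus strand of chr19:51311644-51330891.

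The RefSeq promoter table (GRCh38.p14) held 9 start sites for 4 of the genes: 5 of NTM, 2 of OPCML and 1 each of LSAMP and IGLON5. Values for the bins of all 9 are given below. The 250 bases before a start site are shown for 5 of them because they differ in composition: the outer start sites of LSAMP, NTM and OPCML, the inner start site of OPCML, and IGLON5. Each reads 5′ to 3′ on the gene's own strand, and capitals mark matches to TGTGTG or GTGTGT on either strand (CACACA and ACACAC on the printed strand), the kind of repeat whose RNA form, rich in UG, TDP-43 is known to bind. The motifs overlap each other, so a run is capitalised as a whole.
LSAMP, chr3:116445488-116445737, minus strand: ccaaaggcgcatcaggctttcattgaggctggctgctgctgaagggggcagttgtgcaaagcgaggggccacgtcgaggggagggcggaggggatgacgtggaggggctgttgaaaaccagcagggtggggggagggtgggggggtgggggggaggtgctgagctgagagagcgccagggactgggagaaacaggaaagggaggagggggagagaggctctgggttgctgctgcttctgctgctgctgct
NTM outer start, chr11:131370365-131370614, plus strand: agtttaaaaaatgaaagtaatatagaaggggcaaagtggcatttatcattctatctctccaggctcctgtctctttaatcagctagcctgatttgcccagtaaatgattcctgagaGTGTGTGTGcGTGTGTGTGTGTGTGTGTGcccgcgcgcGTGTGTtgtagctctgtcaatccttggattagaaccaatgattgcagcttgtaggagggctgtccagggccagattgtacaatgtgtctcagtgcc
OPCML outer start, chr11:133532502-133532751, minus strand: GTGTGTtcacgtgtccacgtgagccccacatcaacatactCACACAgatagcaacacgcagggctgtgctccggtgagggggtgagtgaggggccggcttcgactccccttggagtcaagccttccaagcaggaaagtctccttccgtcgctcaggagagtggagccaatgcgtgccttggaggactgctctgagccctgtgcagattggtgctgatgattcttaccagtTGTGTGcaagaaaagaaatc
OPCML inner start, chr11:132943837-132944086, minus strand: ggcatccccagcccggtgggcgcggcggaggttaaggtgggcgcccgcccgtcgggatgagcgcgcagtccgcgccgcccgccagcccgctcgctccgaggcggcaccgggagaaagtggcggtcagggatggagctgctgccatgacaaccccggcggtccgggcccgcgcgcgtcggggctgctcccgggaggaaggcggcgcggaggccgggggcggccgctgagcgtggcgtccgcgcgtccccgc
IGLON5, chr19:51311394-51311643, plus strand: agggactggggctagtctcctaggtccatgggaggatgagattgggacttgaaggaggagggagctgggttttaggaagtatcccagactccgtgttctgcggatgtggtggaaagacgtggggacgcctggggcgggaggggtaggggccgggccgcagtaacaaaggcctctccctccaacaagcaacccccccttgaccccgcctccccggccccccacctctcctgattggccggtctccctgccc

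The NTM outer promoter had 34 bases in such matches, with a longest unbroken run of 19. The OPCML outer promoter had 18 bases in 3 short matches, and the other 3 printed promoters had none. Among the promoters not printed, those of the NTM start sites at 131585562 and 131909924 had 6 bases each in a match. Those of the NTM start sites at 131911336 and 132211776 had none. Of 35116 RefSeq promoter stretches of the same length, 17.9% held at least 1 match. CpG dinucleotides numbered 41 in the OPCML inner promoter, 10 in that of IGLON5, 9 in the OPCML outer one, 7 in that of LSAMP and 5 in the NTM outer one, against a median of 11 over all promoters (quartiles 3 and 23). The OPCML inner promoter was 79.6% G or C. These matches describe the letters only and say nothing of binding.

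With TMM scaling and edgeR's quasi-likelihood test, 10 of the 100 pairs differed between knockdown and control at a Benjamini-Hochberg adjusted p under 0.05, computed over all listed pairs. The share over all listed pairs was 16.2%, so the IgLON pairs were called no more often than the table as a whole. Of the 10, 5 were higher in the knockdown (5.76% over all pairs) and 5 lower (10.5% over all pairs), and all 10 were contacts within a bin, where 21.7% of all such pairs were called (7.4% higher and 14.3% lower). Levels are given as CPM, the counts of a library scaled to a common total of listed contacts with TMM factors. The pairs whose 2 knockdown libraries lay both above or both below the 2 control libraries numbered 45 of 100, 31 above and 14 below, against 56.1% of all pairs.

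The fold change in this table moves with abundance. Over all contacts within a bin, the median log2 fold change was 0.13 in the 10% of pairs with the fewest contacts and -0.29 in the 10% with the most. When that trend was removed by a loess fit, these medians were 0.04 and -0.00. The log2 fold changes of that fit came within 0.00283 of the authors' own for every IgLON pair, though how the authors scaled theirs is not stated. Because of this trend, each IgLON pair called with either scaling is given with both. Other single pairs, and the bins beside the genes, are given with TMM alone. With the trend removed, 3 of the 100 pairs passed the threshold, 1 higher and 2 lower, against 10.9% of all pairs (4.98% higher and 5.96% lower). Of contacts within a bin, 2 of 67 passed, 1 each way, against 13.0% of all such pairs (7.9% higher and 5.11% lower). The 5 pairs called lower with TMM were the 5 IgLON bins with the most contacts, at 20.9 to 51.7 CPM in the control, and none of them passed with the trend removed. The 5 called higher had 1.60 to 8.12 CPM, and 1 of them passed with the trend removed. That bin, in LSAMP, was the single IgLON pair called in the same direction with both scalings, against 8.28% of all pairs.

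**Figure D1:**
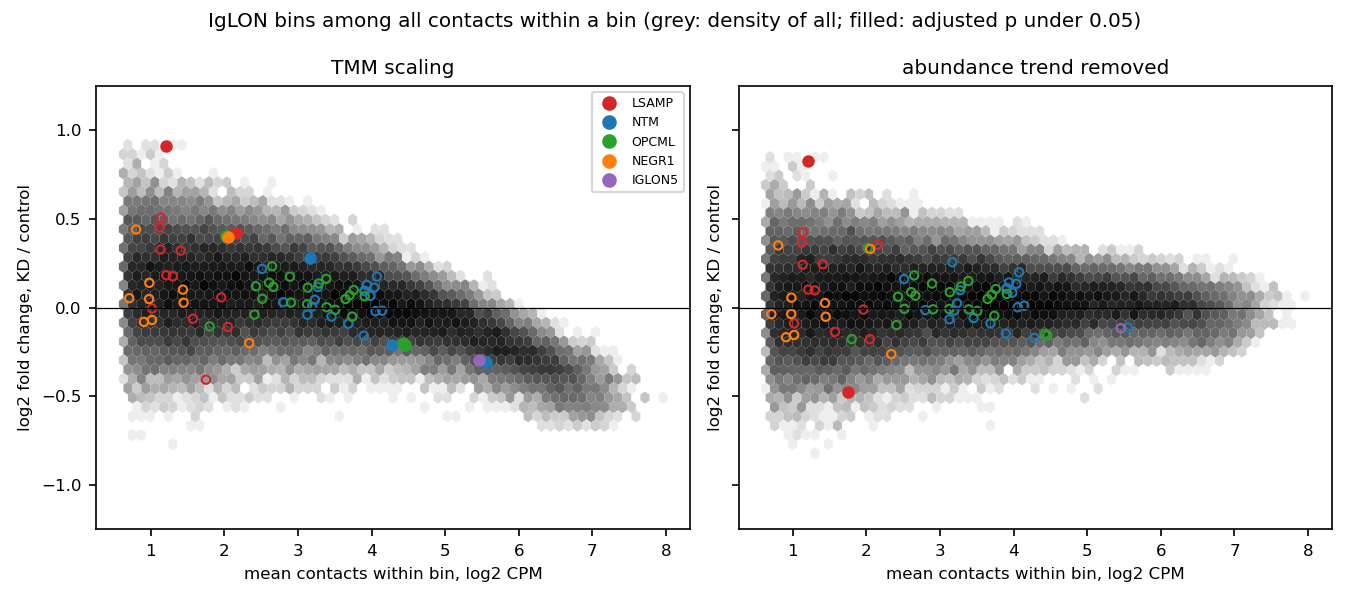
The log2 fold change of knockdown over control (y) against the mean contacts within a bin in log2 CPM (x), with TMM scaling on the left and with the abundance trend removed on the right. Grey shows the density of all contacts within a bin, circles the IgLON bins by gene, and filled circles those with an adjusted p under 0.05, which number 10 on the left and 2 on the right.

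LSAMP held the largest change in the family. Control contacts within its 13 bins were sparse, from 1.60 to 4.27 CPM with a median of 2.30. The bin chr3:115850001-115900000, near the 3′ end of the gene and inside its body, had 1.50 and 1.69 CPM in the controls against 2.85 and 3.16 in the knockdowns. The groups did not overlap. Knockdown exceeded control by 0.91 on the log2 scale (SE 0.20, edgeR adjusted p = 0.000218), or 1.88-fold, and 0.83 (adjusted p = 0.00149) with the trend removed. Adjusted p-values were between 0.000162 and 0.0411 when each of the 4 libraries was left out in turn, and the authors' deposited table gives 0.83 with an adjusted value of 0.00154. The bin also holds the uncharacterised loci LOC105374053 and LOC124906269.

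The neighbouring bin chr3:115800001-115850000, which holds the 3′ end of LSAMP, had 3.65 and 3.97 CPM in the controls against 4.81 and 5.37 in the knockdowns. Its log2 fold change of 0.42 (SE 0.14, edgeR adjusted p = 0.0249) became 0.35 (adjusted p = 0.0849) with the trend removed. The adjusted p was 0.0938 without control 1, 0.105 without knockdown 1 and 0.344 without knockdown 2. The next bin outward, beyond the 3′ end, had 8.09 and 8.37 CPM in the controls against 7.95 and 8.01 in the knockdowns, a log2 fold change of -0.04 (edgeR adjusted p = 0.823). Both called bins overlap the gene body, which the rule for choosing pairs required.

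The 2 LSAMP bins nearest its start site had negative values. The bin chr3:116350001-116400000, which also holds LSAMP-AS1, an antisense transcript, had 4.56 and 3.08 CPM in the controls against 2.93 and 2.83 in the knockdowns. The control libraries were far apart here, and control 2 was close to the knockdown libraries. With TMM the log2 fold change of -0.41 did not pass (SE 0.17, edgeR adjusted p = 0.0795), and with the trend removed it was -0.48 (adjusted p = 0.0396). With TMM the adjusted p was 0.748 without control 1 and 0.00178 without control 2. The start-site bin chr3:116400001-116450000 had 4.35 and 4.20 CPM in the controls against 4.20 and 3.73 in the knockdowns, a log2 fold change of -0.11 (edgeR adjusted p = 0.670), and the bin upstream of the gene gave 0.16 (adjusted p = 0.619).

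Over the whole of LSAMP, 9 of 13 bins had a positive log2 fold change with TMM and 8 with the trend removed, with medians of 0.18 and 0.10. All contacts within a bin in the same range of abundance (13070 pairs) had medians of 0.11 and 0.04, and of these 6.5% were called higher and 0.888% lower with TMM. Knockdown and control libraries did not overlap in 10 of the 13 bins, 8 of them higher, against 59.9% of all contacts within a bin. No contact between different bins of LSAMP was in the list.

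**Figure D2:**
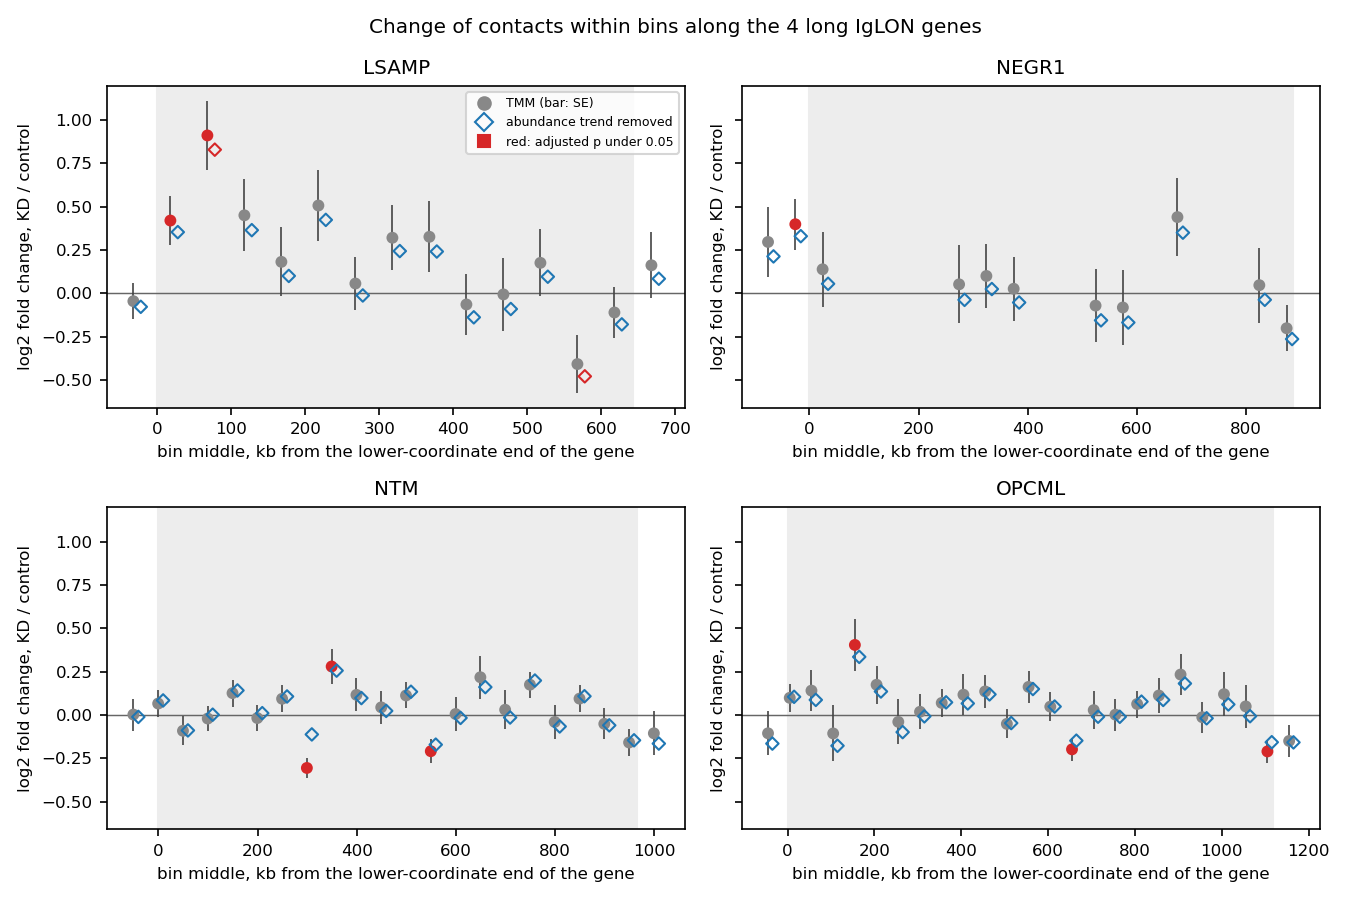
The log2 fold change of knockdown over control (y) for each bin, placed by the distance of its middle from the lower-coordinate end of the gene in kb (x), for the 4 long IgLON genes, with the gene body shaded. Circles with SE bars are TMM values, diamonds have the abundance trend removed, and red marks an adjusted p under 0.05. LSAMP runs from 0.91 near its 3′ end, on the left, to -0.41 near its start.

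NTM had more contacts within its bins than LSAMP, with a control median of 14.5 CPM over 20 bins and a range of 5.27 to 51.7. The highest bin was chr11:131650001-131700000, inside the gene, which also holds the antisense gene NTM-AS1. It had 51.2 and 52.2 CPM in the controls against 42.3 and 41.4 in the knockdowns, with no overlap. Its control level was 3.57 times the median bin of NTM, 2.48 times the second highest, and above 90.6% of all contacts within a bin. The log2 fold change was -0.31 (SE 0.06, edgeR adjusted p = 4.12e-06), and the adjusted p stayed at or under 0.0189 when any 1 library was left out. With the trend removed it was -0.11 (adjusted p = 0.0900).

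The adjoining bin chr11:131700001-131750000 moved the other way with TMM. It had 7.81 and 8.43 CPM in the controls against 9.39 and 10.3 in the knockdowns, a log2 fold change of 0.28 (SE 0.10, edgeR adjusted p = 0.0356) and of 0.26 (adjusted p = 0.0902) with the trend removed. The adjusted p was 0.168 without control 1, 0.105 without knockdown 1 and 0.410 without knockdown 2. With TMM, a fall and a rise thus stood side by side in NTM, in bins whose control contacts differed widely.

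The third called bin of NTM, chr11:131900001-131950000, holds the start sites at 131909924 and 131911336. It had 21.6 and 20.2 CPM in the controls against 17.4 and 18.7 in the knockdowns, a log2 fold change of -0.21 (SE 0.07, edgeR adjusted p = 0.0248) and of -0.17 (adjusted p = 0.0988) with the trend removed. Its adjusted p was 0.0954 without control 1, 0.421 without knockdown 1 and 0.0832 without knockdown 2. It was the second highest bin of the gene.

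The other start-site bins of NTM did not pass. The outer start, behind the repeat-bearing promoter printed above, lies in a bin with 15.2 and 15.7 CPM in the controls against 15.9 and 16.4 in the knockdowns, a log2 fold change of 0.07 (edgeR adjusted p = 0.612). The bins of the start sites at 131585562 and 132211776 gave -0.02 (adjusted p = 0.908) and 0.09 (adjusted p = 0.453). The bin of the 3′ end gave -0.16 (adjusted p = 0.162), the bin before the gene 0.00 (adjusted p = 0.991) and the bin after it -0.11 (adjusted p = 0.629). The median over the 20 bins was 0.04 with TMM and 0.02 with the trend removed, where all contacts within a bin of like abundance had 0.01 and 0.04.

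**Figure D3:**
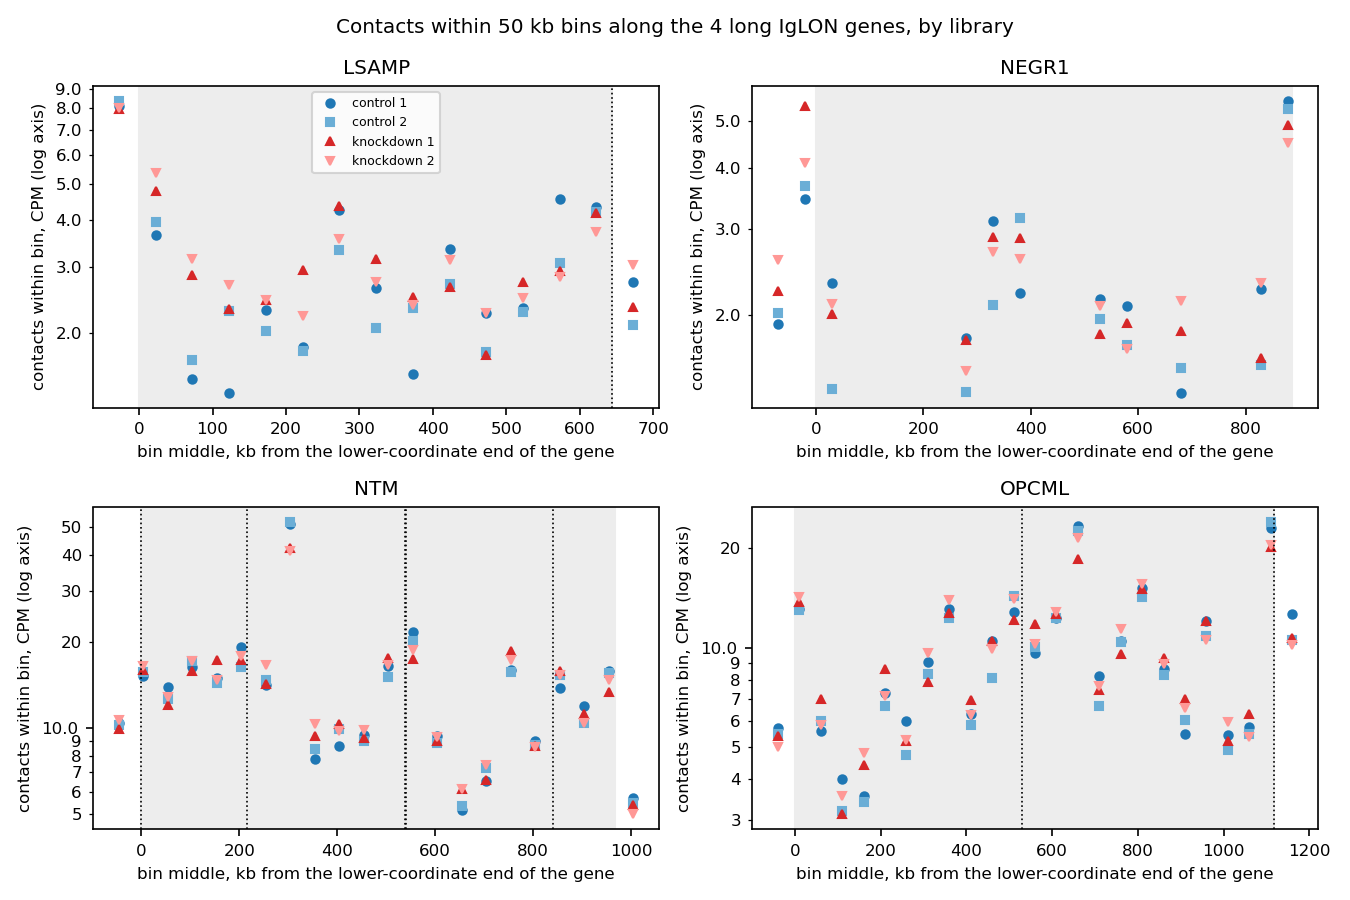
Contacts within each 50 kb bin in CPM (y, log axis) for the 2 control libraries (blue) and the 2 knockdown libraries (red), by distance of the bin's middle from the lower-coordinate end of the gene in kb (x). Shading marks the gene body and dotted lines the RefSeq start sites, which the table does not give for NEGR1. The 1 bin of NTM above 40 CPM and the 2 bins of OPCML above 18 CPM in every library stand over the rest of their genes.

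NTM was also the member with the most listed contacts between bins, 18 in all. The 3 that spanned 100 kb or more all had the high bin at 131650001 as 1 end. It was joined to the bin 100 kb away that holds the start site at 131585562, with 2.37 and 2.27 CPM in the controls against 2.68 and 2.69 in the knockdowns. It was joined to the bin 250 kb away that holds the start sites at 131909924 and 131911336, with 1.63 and 1.86 CPM in the controls against 1.53 and 2.02 in the knockdowns. The third contact, with a bin 600 kb away before the gene, had 1.32 and 1.79 CPM in the controls against 1.83 and 1.61 in the knockdowns. None of the 3 passed the test, with log2 fold changes of 0.21 (edgeR adjusted p = 0.505), 0.03 (adjusted p = 0.948) and 0.15 (adjusted p = 0.719). Their SEs were 0.19 to 0.23, so changes of that size, and larger ones, could have been missed at this depth.

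The contact between the bin of the 3′ end of NTM and the bin after it, chr11:132300001-132350000 with chr11:132350001-132400000, had 2.31 and 2.06 CPM in the controls against 1.38 and 1.59 in the knockdowns. The groups did not overlap. This pair had a log2 fold change of -0.55 (SE 0.22, edgeR adjusted p = 0.0692) with TMM and -0.64 (adjusted p = 0.0433) with the trend removed. With TMM the adjusted p ran from 0.0596 without control 2 to 0.439 without knockdown 1. The contact between the bin at 131550001 and the next one had the largest positive value, 0.45 (edgeR adjusted p = 0.0724). Among all 33 contacts between different bins of the IgLON genes, 0 passed in edgeR with TMM and 1 with the trend removed, against 11.4% and 7.65% of all pairs of adjoining bins. Of the 33, 28 joined adjoining bins and 5 joined bins 100 kb or more apart, which these shares do not cover. DESeq2 called 0 of the 33, and 2 of the 33 had an unadjusted p under 0.05 with edgeR and TMM. No share of all pairs is given for either count, so neither shows anything particular to the IgLON genes.

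**Figure D4:**
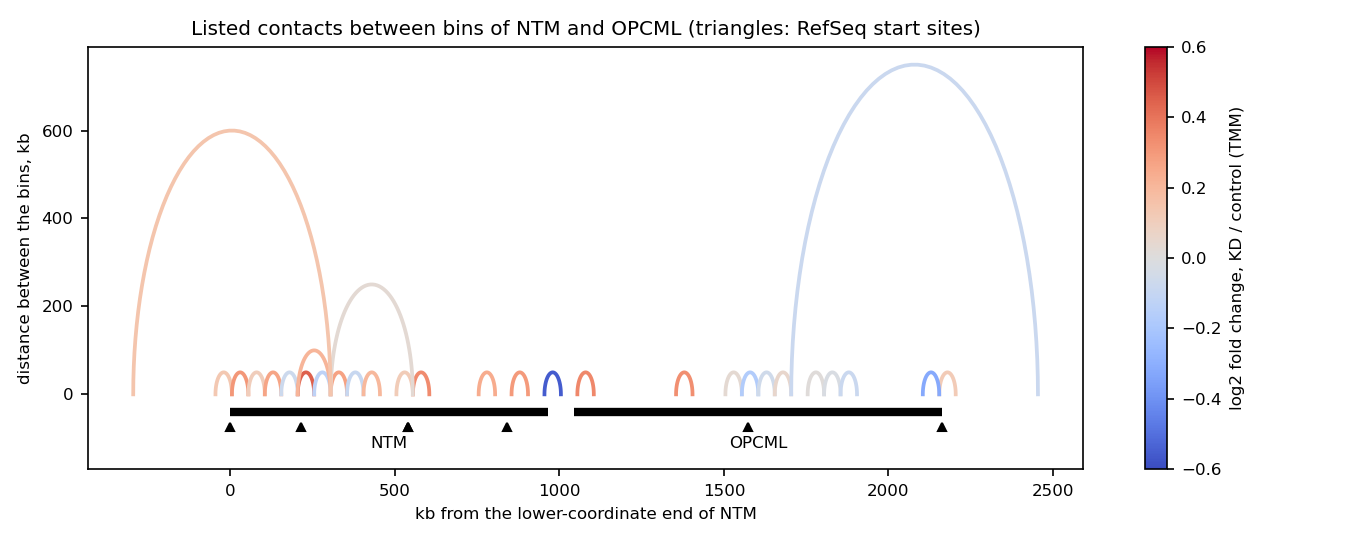
Listed contacts between different bins of NTM and OPCML, drawn as arcs between the bin middles at their distance from the lower-coordinate end of NTM in kb (x), with the height giving the distance between the bins in kb (y). Colour gives the log2 fold change with TMM, black bars the gene bodies and triangles the start sites. All 3 NTM arcs of 100 kb or more end in 1 bin, and the darkest blue arc, at the 3′ end of NTM, is the pair at -0.55.

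OPCML, the neighbour of NTM, had a control median of 8.66 CPM over 23 bins, with a range of 3.48 to 23.5. The outer start-site bin, chr11:133500001-133550000, was its highest. It had 23.1 and 24.0 CPM in the controls against 20.2 and 20.5 in the knockdowns, with no overlap. Its log2 fold change was -0.21 (SE 0.07, edgeR adjusted p = 0.0169) and -0.16 (adjusted p = 0.107) with the trend removed. The adjusted p was 0.0655 without control 2, 0.237 without knockdown 1 and 0.158 without knockdown 2. The bin upstream of the gene gave -0.15 (edgeR adjusted p = 0.272).

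The inner start site of OPCML, behind the CpG-rich promoter, lies in a bin with 12.8 and 14.3 CPM in the controls against 12.2 and 14.0 in the knockdowns. The groups overlapped, with a log2 fold change of -0.05 (SE 0.08, edgeR adjusted p = 0.735). Whether the outer and inner start-site bins differ in their change was not tested.

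The second called bin, chr11:133050001-133100000, between the start sites, had 23.3 and 22.6 CPM in the controls against 18.5 and 21.5 in the knockdowns, a log2 fold change of -0.20 (SE 0.07, edgeR adjusted p = 0.0302) and of -0.15 (adjusted p = 0.146) with the trend removed. Knockdown 2 lay close to the control libraries, and without knockdown 1 the adjusted p was 0.665. It was 0.0504 without control 1. This bin was also 1 end of the single long contact of OPCML, with the bin of SPATA19 and LINC02743 at 750 kb, which had 2.02 and 1.52 CPM in the controls against 1.93 and 1.42 in the knockdowns (log2 fold change -0.08, edgeR adjusted p = 0.854).

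The bin chr11:132550001-132600000, toward the 3′ end of OPCML, was the single bin of the gene called higher. It had 3.54 and 3.41 CPM in the controls against 4.40 and 4.80 in the knockdowns, a log2 fold change of 0.40 (SE 0.15, edgeR adjusted p = 0.0446) and of 0.34 (adjusted p = 0.126) with the trend removed. The call was lost whichever library was left out, with adjusted p-values from 0.0513 without control 1 to 0.370 without knockdown 2, 0.0911 without control 2 and 0.178 without knockdown 1. The bin of the 3′ end gave 0.10 (edgeR adjusted p = 0.449). Over the 23 bins the median was 0.06 with both scalings, where contacts of like abundance had 0.07 with TMM and 0.05 with the trend removed. With the trend removed 0 of the 35 OPCML pairs passed in edgeR, 4 having an unadjusted p under 0.05, and DESeq2 called 1, the outer start-site bin. Of all pairs, 10.9% passed in edgeR with the trend removed, and no share is given for the unadjusted or DESeq2 counts.

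NTM and OPCML lie near the end of the long arm of chromosome 11, where pairs were called lower more often than over the whole table. Of the 213 listed pairs in the last 5 Mb, 17.8% were lower and 1.41% higher with TMM. The 73 pairs of NTM and OPCML had 4 lower (5.48%) and 2 higher (2.74%), and the other 140 pairs had 34 lower (24.3%) and 1 higher (0.714%). With the trend removed, 1 of the 73 (1.37%) and 20 of the 140 (14.3%) were lower, against 9.86% of all 213. These are counts of pairs that share libraries and neighbourhood, and the difference between them was not tested.

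NEGR1 was the member with the fewest contacts per bin, with a control median of 1.99 CPM and a range of 1.47 to 5.39 over the bins listed. Of the 19 bins it spans, 10 were listed, and the other 9 are not analysed here. The bin chr1:71350001-71400000 holds the lower-coordinate end of the gene, at 71395943, so most of the bin lies outside the gene body. It had 3.46 and 3.68 CPM in the controls against 5.35 and 4.09 in the knockdowns. The groups did not overlap, but the knockdown libraries were further apart than knockdown 2 was from the control. Its log2 fold change was 0.40 (SE 0.15, edgeR adjusted p = 0.0471) and 0.33 (adjusted p = 0.133) with the trend removed. It was lost without knockdown 1 (adjusted p = 0.693) and without control 1 (adjusted p = 0.119).

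At the other end of NEGR1, the bin chr1:72250001-72300000 had 5.49 and 5.28 CPM in the controls against 4.89 and 4.49 in the knockdowns, a log2 fold change of -0.20 (SE 0.13, edgeR adjusted p = 0.320). The bin before the lower-coordinate end gave 0.30 (adjusted p = 0.345). The median over the 10 listed bins was 0.05 with TMM and -0.04 with the trend removed, where contacts of like abundance had 0.12 and 0.04.

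IGLON5, the short member, lies within 1 bin, chr19:51300001-51350000, together with ETFB (a subunit of the mitochondrial electron transfer flavoprotein), VSIG10L and VSIG10L-AS1. A change in this bin cannot be assigned to any of these genes. It had 48.8 and 47.9 CPM in the controls against 38.4 and 40.3 in the knockdowns, with no overlap. The bin fell by 0.30 on the log2 scale (SE 0.06, edgeR adjusted p = 9.39e-06), and the adjusted p stayed at or under 0.0437 when any 1 library was left out. With the trend removed it was -0.12 (adjusted p = 0.0855). The bin after it had 46.2 and 53.0 CPM in the controls against 39.9 and 41.2 in the knockdowns, a log2 fold change of -0.29 (edgeR adjusted p = 1.78e-05), and the bin before it, with far fewer contacts at 14.1 and 13.8 CPM in the control libraries, gave -0.00 (adjusted p = 0.990). The contact between the IGLON5 bin and the bin after it had 6.98 and 7.36 CPM in the controls against 6.81 and 6.07 in the knockdowns (log2 fold change -0.16, edgeR adjusted p = 0.379).

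Contacts within bins were then summed over each gene body and tested over 18701 protein-coding genes. Per bin, the control level was highest for IGLON5 at 48.4 ± 0.689 CPM (SD, n = 2), followed by NTM at 14.7 ± 0.133, OPCML at 9.83 ± 0.284, LSAMP at 2.67 ± 0.134 and NEGR1 at 2.51 ± 0.172. The control ranges of LSAMP (2.58 to 2.77) and NEGR1 (2.39 to 2.63) overlapped and those of the other neighbours in this order did not. The NEGR1 level covers only the 10 listed of its 19 bins, while all 13 bins of LSAMP were listed, so these levels do not cover the genes alike. In the knockdown libraries the levels per bin were 39.4 ± 1.30 for IGLON5, 14.5 ± 0.119 for NTM, 9.97 ± 0.131 for OPCML, 3.02 ± 0.0348 for LSAMP and 2.64 ± 0.0888 for NEGR1 (SD, n = 2).

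The outcome of this test turned on how the sums were scaled. TMM on the gene sums is centred on genes, and it put the median log2 fold change of all genes at 0.02. With the scaling of the pair table, the same median was -0.11, and with the trend removed from each pair before summing it was -0.01. Another fit removed the trend from the gene sums themselves, with a median of -0.00; a sum grows with the number of bins, so abundance there also follows gene length. The pair scaling and the removal per pair were added after the data were seen. With TMM on the gene sums all 5 members passed, 4 higher and 1 lower, in a background where 49.0% of genes passed (22.6% higher and 26.4% lower). With the pair scaling 2 of 5 passed, against 50.2% of genes (5.46% higher and 44.7% lower). Removing the trend from the gene sums left 4 of 5 past the threshold, 3 higher and 1 lower, against 37.6% (18.5% higher and 19.1% lower). Removing it per pair left 0 of 5, against 27.1% (12.2% higher and 15.0% lower), and in that edgeR fit 2 of the 5 had an unadjusted p under 0.05. DESeq2 on the gene sums, whose size factors are also centred on genes, called 5. The shares of all genes called by DESeq2, or with an unadjusted p under 0.05, are not given here.

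LSAMP kept its direction under all 4. Its sum rose by a log2 fold change of 0.31 (SE 0.05, edgeR adjusted p = 1.19e-05) with TMM on gene sums and by 0.18 (SE 0.05, adjusted p = 0.00281) with the pair scaling, where the libraries had 2.77 and 2.58 CPM per bin in the control and 3.05 and 3.00 in the knockdown. Its value was 0.25 (adjusted p = 0.000229) with the trend removed from the gene sums, and with the trend removed per pair it was 0.10 (SE 0.05, adjusted p = 0.118). IGLON5 kept the opposite direction, at -0.17 (edgeR adjusted p = 0.00397), -0.30 (adjusted p = 1.02e-06) -0.20 (adjusted p = 0.000824) and -0.12 (adjusted p = 0.0513) in the same order, and the first of these calls was lost without knockdown 1 (adjusted p = 0.102).

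The other 3 passed with TMM on gene sums but not with the pair scaling or the removal per pair. NTM had 0.10 (edgeR adjusted p = 0.0403) there, -0.03 (adjusted p = 0.712) with the pair scaling, 0.33 (adjusted p = 2.65e-09) with the trend removed from the gene sums and 0.01 (adjusted p = 0.751) with the trend removed per pair. Its adjusted p was 0.400 without knockdown 1 and 0.449 without knockdown 2. OPCML had 0.15 (edgeR adjusted p = 0.00589), 0.02 (adjusted p = 0.768), 0.37 (adjusted p = 3.58e-09) and 0.02 (adjusted p = 0.709) in the same order, and its first adjusted p was 0.176 without knockdown 1 and 0.240 without knockdown 2. NEGR1 had 0.20 (edgeR adjusted p = 0.00710), 0.07 (adjusted p = 0.319), 0.11 (adjusted p = 0.137) and -0.00 (adjusted p = 0.978), and its first adjusted p was 0.120 without knockdown 1 and 0.116 without control 2.

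**Figure D5:**
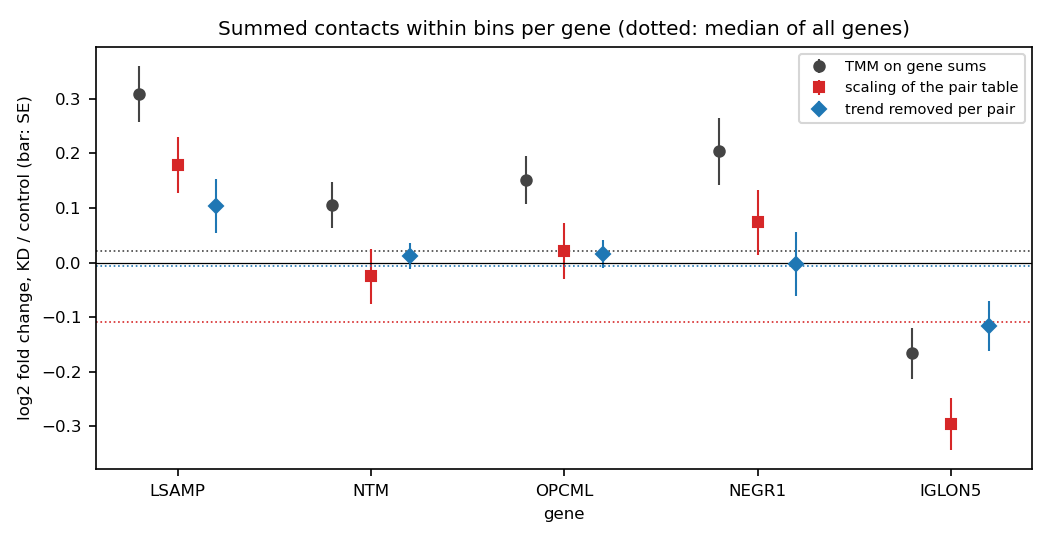
The log2 fold change of knockdown over control (y, bars are SE) of the contacts within bins summed over each IgLON gene (x), with TMM on the gene sums, with the scaling of the pair table and with the abundance trend removed per pair. Dotted lines are the medians of all genes at 0.02, -0.11 and -0.01. LSAMP is above 0 and IGLON5 below 0 under all 3.

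Further sets of genes around the IgLON proteins were counted in 3 of these fits, TMM on gene sums (22.6% of all genes higher and 26.4% lower), the pair scaling (5.46% and 44.7%) and the trend removed per pair (12.2% and 15.0%). Of 36 other neuronal adhesion genes of the immunoglobulin superfamily, 14 were higher and 12 lower with TMM on gene sums, 6 and 18 with the pair scaling, and 11 and 5 with the trend removed per pair, with median log2 fold changes of -0.01, -0.14 and 0.02. The largest changes among those that passed were in MDGA2, a GPI-anchored regulator of synapse formation (-0.53, edgeR adjusted p = 0.0132, 1 listed bin), the contactins CNTN3 (0.44, adjusted p = 1.05e-06) and CNTN6 (0.37, adjusted p = 0.000196), and NECTIN2 (-0.36, adjusted p = 1.57e-07). These values are with TMM on gene sums. With the trend removed per pair they were -0.74, 0.24, 0.16 and -0.25 in the same order, and CNTN6 did not pass (edgeR adjusted p = 0.108). Of 20 genes that make, attach or remodel GPI anchors, 5 were higher and 4 lower, 2 and 5 with the pair scaling, and 2 and 3 with the trend removed per pair, with medians of 0.08, -0.05 and 0.02. Those that moved most in that list with TMM on gene sums were PGAP6 (-0.39), PIGK (0.35), GPAA1 (-0.34) and PIGF (0.32). Of these, PIGK and GPAA1 encode subunits of the transamidase that attaches the anchor. With the trend removed per pair the values were -0.14, 0.15, -0.12 and 0.21 in the same order, and PIGK did not pass (edgeR adjusted p = 0.203). Of 8 reported partners and sheddases of IgLON proteins, 5 were higher and 0 lower (22.6% and 26.4% of all genes), 0 and 1 with the pair scaling (5.46% and 44.7%), and 2 and 0 with the trend removed per pair (12.2% and 15.0%), with medians of 0.15, 0.02 and 0.09; the largest were LGI1 (0.30), GPLD1 (0.21), ADAM10 (0.19) and NCAM1 (0.16), and none of these 4 passed with the pair scaling.

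The nearest protein-coding neighbours gave a setting for each member, with TMM on gene sums, the pair scaling and the trend removed per pair in turn. Beside LSAMP, GAP43, a growth cone protein, had log2 fold changes of 0.07, -0.06 and -0.09 and passed in none of the 3 edgeR fits (lowest adjusted p = 0.348). IGSF11, an adhesion gene 2455 kb from LSAMP, had 0.29 (edgeR adjusted p = 0.000241), 0.16 (adjusted p = 0.0254) and 0.10 (adjusted p = 0.227). Beside NTM, SNX19 had 0.00 (edgeR adjusted p = 0.978), -0.13 (adjusted p = 0.0687) and -0.13 (adjusted p = 0.1003). Beside OPCML, SPATA19 had -0.08 (edgeR adjusted p = 0.301), -0.21 (adjusted p = 0.00289) and -0.12 (adjusted p = 0.128), so it passed with the pair scaling alone. ZRANB2 and LRRIQ3, beside NEGR1, passed in none of the 3 fits (lowest edgeR adjusted p = 0.158). Before IGLON5, SIGLECL1 had 0.19 (edgeR adjusted p = 0.0113), 0.06 (adjusted p = 0.436) and 0.06 (adjusted p = 0.544), so it passed with TMM on gene sums alone, and VSIG10L on its other side shares the IGLON5 bin and so has the same values.

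The genes most like each long member were found among 365 protein-coding genes with at least 10 listed bins, by the Euclidean distance over the 4 libraries between gene sums in log2 CPM centred on the gene's mean. LSAMP was nearest to CDKAL1 (distance 0.0128), DSCAM (0.0143) and GRIN2B (0.0236). NTM was nearest to STK32B (0.00994), ZNF536 (0.0117) and RERE (0.0131), and OPCML to CCDC7 (0.00427), ANKS1B (0.0172) and BNC2 (0.0174). NEGR1 was nearest to SOX5 (0.0201), SLC9A9 (0.0253) and SLC8A1 (0.0253). With 4 libraries such likeness is a description of these libraries.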

How the data were processed

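The deposited table gives, per the file headers, raw contact counts per library for pairs of 50 kb bins, with the authors' log2 fold change and log2 mean abundance, an F score and p-values with adjusted values. HiC-Pro and hg38 are named in the submitters' processing notes. How the table was made is otherwise not given in the sources used here.

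Counts were fitted over all 89239 pairs with edgeR 4.0.16 (TMM, glmQLFit, glmQLFTest; R 4.3.3) and adjusted by Benjamini-Hochberg, threshold 0.05. SE is the log2 fold change divided by the square root of F. A second fit used loess offsets over abundance, which came within 0.00283 of the authors' log2 fold change for every IgLON pair. The scripts recovered known changes put into simulated counts. Those counts had a shared dispersion and no trend with abundance, so they cannot show how the calls hold under that trend. The check was set at a change larger than any given here for an IgLON pair. The 2 control libraries differed beyond counting error (chi-square 8.86 per degree of freedom), as did the knockdown libraries (4.80). Replicate numbers did not pair the libraries (correlation of deviations 0.0192).

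The members and gene lists were chosen with earlier results of these data known. Named were, per gene, up to 3 called pairs each way, start-site, end and flanking bins, and neighbours; up to 4 genes per list; and the 3 most similar genes. Further single pairs, such as those of 100 kb or more, were named after their values were seen. Alternatives tried were DESeq2 1.42.0, other scalings, thresholds, filters, bin rules, the replicate block and leaving out each library; 2 scalings of the gene sums were added after seeing the data.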

Additional observations from a re-analysis of the deposited data

How the results depend on the processing

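The count of called IgLON pairs, 10 of 100 with edgeR and TMM, was 4 with DESeq2, 3 at an adjusted p under 0.01, 3 after removal of the trend and 3 in the authors' deposited table. It ranged from 3 (without knockdown 1) to 11 (without control 2) when each library was left out. It was 11 with TMM within distance classes and 15 at an adjusted p under 0.1. It was 10 with a mean count of at least 500 (50 pairs kept), 10 with both bins in the gene (92 pairs) and 12 in a fit of contacts within a bin alone (67 pairs). With the replicate number as a block it was 10, and the block changed no other call. Where no share of all pairs is given, the count cannot be set against the table as a whole. The LSAMP bin at 115850001 passed under all 13 alternatives that kept it. Its mean count was under 500, so the filter on mean count left it untested. Each of the other 9 called bins lost its call under at least 1 alternative.

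The gene sums passed for 5 of 5 members with TMM, for 1 to 5 when each library was left out (1 without knockdown 1), for 1 of 4 with bins wholly inside the gene, for 4 with the trend removed from the gene sums (NTM 0.334, OPCML 0.368; NEGR1 lost, adjusted p = 0.137, edgeR), and, by 2 scalings chosen after seeing the data, for 2 with the scaling of the pair table and for 0 with the trend removed per pair. With DESeq2 it was 5, and with the replicate block 5. The share over all genes was 49.0% with TMM and 37.6% with the trend removed from the gene sums. It was 50.2% with the scaling of the pair table and 27.1% with the trend removed per pair. For the other settings no share is given, so their counts cannot be set against all genes. With bins wholly inside the gene, LSAMP was the member that passed, at 0.15 (edgeR adjusted p = 0.0412). NTM turned to -0.0563 with bins wholly inside the gene and to -0.0251 with the pair scaling, and NEGR1 to -0.00306 with the trend removed per pair. Why was not tested. For contacts between bins, low counts limit what could be detected.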
